A study of Mus musculus with 10 samples.

Results

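The genes described here are the nuclear genes of oxidative phosphorylation, taken from the expression table by symbol: those beginning Nduf, Uqcr, Cox4 to Cox8 or Atp5, and Sdha to Sdhd. Of 117 matching entries, 15 with -ps (pseudogene) symbols and 14 with under 100 counts over all samples were left out, and the other 88 are the members. They are 88 of 77175 entries in the table and 88 of the 15526 genes with enough counts to be tested. By enzyme they are 38 subunit genes of complex I, 8 assembly factors of complex I (Ndufaf genes, which are not subunits), 4 genes of complex II, 8 of complex III, 12 of complex IV and 18 of complex V. Ndufa4 carries a complex I name but its product is a subunit of complex IV, and it is counted there (39 and 11 genes if it is left under complex I). RNA was sequenced in bulk from B16-F10, a mouse melanoma cell line (WT here), and from B16-F10-OVA (OVA here), the same line carrying the lentiviral vector pLV[Exp]-Neo-EF1A>{ovalbumin}, in which the EF1A promoter drives ovalbumin beside a neomycin resistance gene. Each line was sampled untreated (2 libraries) and after 24 h of interferon gamma (IFN-γ) at 50 ng/ml (3 libraries), 10 libraries in all, and the series was made to see if the response differs between the lines. The labels do not say whether OVA is 1 clone or whether replicates were separate cultures. The p-values therefore cover the spread among these libraries alone, which may be technical. The ovalbumin transcript was not analysed here.

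Oxidative phosphorylation is the last stage of respiration in the inner mitochondrial membrane. Complex I takes electrons from NADH and complex II from succinate; both pass them through ubiquinone to complex III, cytochrome c and complex IV, which reduces oxygen, and complex V (ATP synthase) makes ATP from the proton gradient that complexes I, III and IV build. Every complex except II joins subunits from nuclear genes, which are the members here, with subunits from mitochondrial DNA. IFN-γ is a T cell and NK cell cytokine that acts on tumour cells through a surface receptor.

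Depth was even, with 17728722 to 19642533 counts per library. The treatment acted in both lines: Irf1, an interferon response transcription factor, went from a mean of 10.7 to 701 CPM (counts scaled to library size, here with TMM factors) in WT and from 10.4 to 660.4 in OVA. All 7 listed melanoma markers were detected in every group (summed 23096 to 24500 CPM), while T cell and macrophage markers summed to at most 0.329 and 0.110 CPM per library. Of 4 epithelial markers only Cdh1 could be tested, Epcam and Krt8 were at 0, and the sum was 0.548 to 1.57 CPM with overlap of treated and untreated libraries. The 5 fibroblast markers, of which 3 (Col1a1, Col1a2 and Pdgfra) could be tested, summed to 6.33 to 7.62 CPM in untreated and 4.71 to 5.24 in treated WT and to 6.38 to 6.79 and 4.18 to 5.79 in OVA, while Dcn and Lum had 3 and 2 counts over all libraries. Their sums were lower in every treated library than in the untreated ones of its line, and their part in the members' changes was not tested. No pair of replicates was as close as sampling noise alone would give. Between 0.806% and 0.857% of each library's counts came from the members.

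The members were well expressed. Their median level was 55.9 CPM, against 19.3 CPM over all tested genes, and the least abundant, Atp5me, still had 1191 counts over the 10 libraries. Per kilobase of principal transcript, the scale on which genes can be compared with each other, the catalytic β subunit gene of ATP synthase, Atp5f1b, had the highest level (686 CPM per kb). It was followed by Atp5mc3 (326), 1 of 3 genes for the membrane ring subunit c, then by Ndufa4 (307) and the α subunit gene Atp5f1a (285). The 3 subunit c genes encode the same mature protein, and Atp5mc3 stood above Atp5mc1 (27.7 CPM per kb) and Atp5mc2 (13.02). The lengths used for them were 718.5, 2675.5 and 586 bases. A gene with several principal transcripts was given their median length, so levels per kilobase depend on the annotation. In complex II the iron-sulfur subunit gene Sdhb (222) was above the membrane anchor gene Sdhd (89.99), the flavoprotein gene Sdha (77.6) and the other anchor gene Sdhc (32.9). In complex I the level per kilobase ran from 9.36 for Ndufb2 to 134 for Ndufb9, leaving out Ndufb1 and Ndufb4c, which had no length. The length used for Ndufb2 was 2413 bases. In CPM it stood at 22.6, above Ndufb4 at 12.4 (971 bases). The complex I assembly factors were all low, from 6.05 for Ndufaf3 to 14.7 for Ndufaf2. In the GENCODE M21 annotation, exons of 22 members overlap another gene on the opposite strand, and many members have pseudogene copies, so reads of shared sequence are uncertain.

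Of paralogous subunits that other tissues use, little was found. Cox4i2, Ndufa4l2, Cox7a1, Cox6b2 and Cox8b had 2, 23, 23, 12 and 4 counts over all 10 libraries, against 207 CPM for Cox4i1, the widely used form. Cox6a2, the heart and muscle form, had 3 and 3 counts in untreated WT, 9, 9 and 7 in treated WT, 0 and 1 in untreated OVA, and 8, 5 and 11 in treated OVA. It was left out for its total of 56 counts, so it was not tested. Ndufb4b (66 counts in all, and 0 in 5 libraries) is a close copy of Ndufb4 and Ndufb4c, and how reads were divided among the 3 is uncertain.

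The share of members that changed with IFN-γ was below that of all tested genes in WT and close to it in OVA, and the changes were small. In bulk RNA, fewer cells of a kind and less RNA per cell cannot be told apart. In WT, 29 of 88 members passed the test (edgeR quasi-likelihood F test, Benjamini-Hochberg adjusted p under 0.05 over all tested genes), 19 higher and 10 lower, which is 33.0% of members against 44.2% of all tested genes. In OVA, 41 of 88 passed, 34 higher and 7 lower, which is 46.6% against 48.8%. All genes were called higher in 24.5% and lower in 19.7% of cases in WT, and in 25.9% and 22.9% in OVA. The share of members called higher in OVA was 38.6% and called lower 7.95%. All treated libraries lay above all untreated ones in 28.4% of members in WT (33.0% of all tested genes) and below in 14.8% (29.0%). In OVA these shares were 51.1% (34.0%) and 13.6% (31.7%), so a lack of overlap was common among all genes. A change of at least 0.5 on the log2 scale was rare among members, with 2 of 88 in WT (Ndufb1 and Uqcrh) and 1 in OVA (Ndufb1), against 24.2% and 26.5% of all tested genes. The median log2 change of the members was 0.01 in WT and 0.10 in OVA, and over all tested genes it was 0.01 and 0.00. The split in WT depended on scaling and on single libraries: with upper quartile factors it was 7 higher and 23 lower, with total counts as the only scaling it was 13 and 12, without WT IFN-γ replicate 3 it was 9 and 17, without WT untreated replicate 2 it was 7 and 8, and without WT untreated replicate 1 it was 15 and 4. In OVA it was 15 higher and 8 lower without OVA untreated replicate 1, and 23 and 12 with upper quartile factors.

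**Figure D1:**
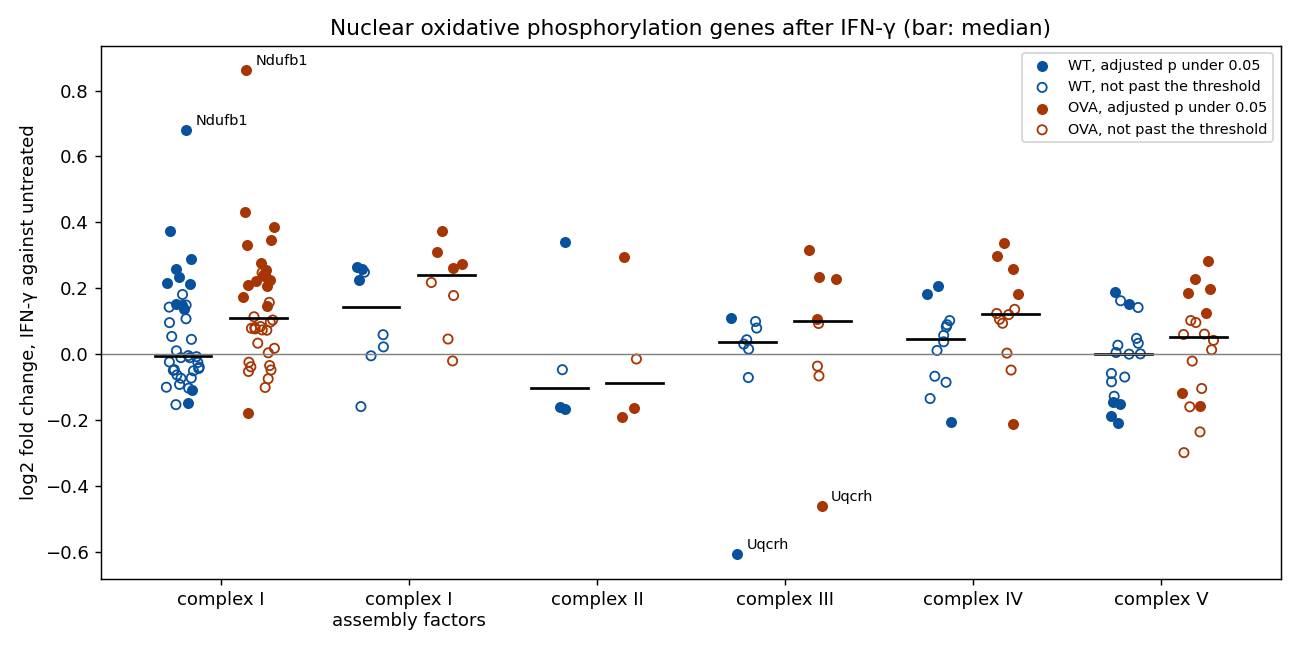
Log2 fold change of IFN-γ against untreated (y axis) for each of the 88 genes, by complex (x axis), in WT (blue) and OVA (brown); filled points have an adjusted p under 0.05 and black bars are medians. All points lie within 0.5 of 0 except Ndufb1 in both lines (0.68 and 0.86) and Uqcrh in WT (-0.61); Uqcrh in OVA is at -0.46.

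Members called in both lines went the same way in each: 15 were higher in both, 6 were lower in both and 0 had opposite calls. A further 4 were higher in WT with no call in OVA, 19 higher in OVA with no call in WT, 4 lower in WT and 1 lower in OVA, and 39 had no call in either. Those called in 1 line are not shown to differ between lines, since no member passed the test of that difference. Under all 20 alternative settings and left-out libraries tried, 9 of the 29 calls in WT and 16 of the 41 in OVA were kept. All 9 are among the 16. They include Ndufb1, Ndufa7, Sdhb and Cox5b, which were higher in both lines, and Uqcrh, Cox6b1, Atp5f1a and Atp5mc3, which were lower in both. Of the members without a call, 22 of 59 in WT and 14 of 47 in OVA gained one under at least 1 of these alternatives.

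The promoters of 4 members that moved in both lines are shown because they pair the strongest increase with the strongest decrease, and 2 partners of complex II that moved in opposite directions. Each runs 5′ to 3′ on the gene's strand from 250 bases before to 50 bases after the RefSeq start (build GRCm38.p6, an earlier mouse build than that of the count table). Capitals mark matches, on either strand, to NRF1 (GCGCA, any base, then GCGC), ETS (CCGGAAG) or YY1 (AAGATGGC), which stand for factors known to bind many promoters of respiratory genes.
Ndufb1, chr12:101975689-101975988, minus strand, higher in both lines, no match: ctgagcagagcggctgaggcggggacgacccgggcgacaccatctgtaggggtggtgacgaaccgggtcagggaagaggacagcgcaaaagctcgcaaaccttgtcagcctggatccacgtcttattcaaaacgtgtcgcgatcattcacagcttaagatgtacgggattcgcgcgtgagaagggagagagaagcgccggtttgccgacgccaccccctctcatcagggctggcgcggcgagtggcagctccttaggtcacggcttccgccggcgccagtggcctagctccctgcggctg
Uqcrh, chr4:116075021-116075320, minus strand, lower in both lines, ETS match: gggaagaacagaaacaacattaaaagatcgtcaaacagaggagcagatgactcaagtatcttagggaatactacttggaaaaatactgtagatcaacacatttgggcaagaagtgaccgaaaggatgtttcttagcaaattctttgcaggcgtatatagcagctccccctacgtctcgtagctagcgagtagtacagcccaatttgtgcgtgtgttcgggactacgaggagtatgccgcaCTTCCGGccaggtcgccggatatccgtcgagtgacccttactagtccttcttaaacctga
Sdhb, chr4:140961021-140961320, plus strand, higher in both lines, ETS match: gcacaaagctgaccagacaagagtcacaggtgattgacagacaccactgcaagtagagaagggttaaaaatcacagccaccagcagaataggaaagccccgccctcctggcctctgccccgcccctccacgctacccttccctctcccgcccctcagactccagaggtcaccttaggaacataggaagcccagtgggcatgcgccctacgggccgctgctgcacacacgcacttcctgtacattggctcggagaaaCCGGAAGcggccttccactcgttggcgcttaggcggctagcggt
Sdhd, chr9:50603800-50604099, minus strand, lower in both lines, NRF1 match and then ETS match: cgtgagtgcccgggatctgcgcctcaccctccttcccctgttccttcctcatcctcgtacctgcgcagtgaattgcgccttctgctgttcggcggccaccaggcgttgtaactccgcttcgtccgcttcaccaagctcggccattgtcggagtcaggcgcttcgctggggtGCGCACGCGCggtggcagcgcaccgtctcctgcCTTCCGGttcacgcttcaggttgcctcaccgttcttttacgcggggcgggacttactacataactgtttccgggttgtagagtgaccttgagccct
A promoter was matched for 72 of the 88 members. NRF1 letters stood in 19 (26.4%) of them, against 5.19% of all 27025 genes with a promoter in the RefSeq table. ETS letters stood in 18 (25.0%, against 9.93%) and YY1 letters in 11 (15.3%, against 3.19%). The 27025 genes were not limited to the 15526 tested in these cells, whereas every member was tested, so the shares compare unlike sets. No motif contains another, though matches can share bases at their ends, and a match is a description of these letters only. Of the 12 matched members higher in both lines, 2 held NRF1, 3 held ETS and 2 held YY1 letters, and 5 held none of these. Of the 4 matched members lower in both lines, 2 held NRF1, 3 held ETS and 0 held YY1 letters, and 0 held none.

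In complex I, increases outnumbered decreases in both lines, with 10 of 38 subunit genes higher and 2 lower in WT and 16 higher and 1 lower in OVA, although upper quartile factors turned the WT counts to 5 higher and 7 lower (11 and 3 in OVA). Beside these counts and those of the other complexes below, 24.5% of all tested genes were called higher and 19.7% lower in WT. In OVA the shares were 25.9% and 22.9%. The median change in complex I was -0.01 in WT and 0.11 in OVA, where it was 0.01 and 0.00 over all tested genes. The strongest increase was that of Ndufb1, a small accessory subunit of the membrane arm. Ndufb1 stood at 9.11 and 10.1 CPM in untreated WT, 14.6, 16.7 and 14.9 in treated WT, 9.04 and 8.60 in untreated OVA, and 15.5, 15.7 and 16.9 in treated OVA. Every treated library was above every untreated one, in both lines. The log2 change was 0.68 (SE 0.093, adjusted p = 1.31e-05) in WT and 0.86 (SE 0.094, adjusted p = 8.51e-07) in OVA. In the GENCODE M21 annotation, 147 of its 1153 exon bases overlap Cpsf2, a pre-mRNA cleavage factor gene on the opposite strand, which was far more abundant and rose by 0.32 in both lines. The libraries are not stated to be stranded, so reads of the overlap cannot be told apart, and the part of Cpsf2 in the value of Ndufb1 was not tested.

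The core subunits of complex I hold the flavin and the iron-sulfur clusters. Of their nuclear genes, Ndufs3 and Ndufv2 were among those higher in both lines. Ndufs3 was at 54.7 and 56.6 CPM in untreated WT, 61.8, 62.3 and 69.3 in treated WT, 50.8 and 55.7 in untreated OVA, and 63.9, 64.95 and 72.2 in treated OVA. Treated and untreated libraries of a line did not overlap, with a change of 0.21 in WT and 0.33 (SE 0.063, adjusted p = 0.000349) in OVA. Its WT call did not hold on leaving out WT untreated replicate 1 (edgeR adjusted p = 0.0943) or WT IFN-γ replicate 3 (0.0676), nor with upper quartile factors (0.0804). Ndufv2, which carries an iron-sulfur cluster beside the flavin, changed by 0.15 in WT and 0.17 in OVA, with the WT call lost on leaving out WT untreated replicate 2 (adjusted p = 0.0877) and with upper quartile factors (0.14). Its partner Ndufv1, the flavin and NADH binding subunit, was called lower in WT (-0.15) and not in OVA (0.00), and its WT call was lost without either untreated WT library (adjusted p = 0.165 and 0.0575) and in DESeq2 (0.08). The largest core subunit, Ndufs1, was called lower in WT (-0.11), although its treated and untreated libraries overlapped, and it did not pass on leaving out WT untreated replicate 1 (adjusted p = 0.366), IFN-γ replicate 1 (0.0534) or IFN-γ replicate 2 (0.0984). Its value in OVA was -0.05, not called. Ndufs7 and Ndufs8 passed in neither line.

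Among the 31 accessory subunits of complex I, 7 were higher and 0 lower in WT, and 13 were higher and 1 lower in OVA. Of all tested genes, 24.5% were higher and 19.7% lower in WT, and 25.9% and 22.9% in OVA. The WT split depended on scaling: upper quartile factors called Ndufa8, Ndufa10, Ndufb2, Ndufb5 and Ndufb10 lower. The WT call of Ndufc2, 1 of the 7, was lost with those factors (edgeR adjusted p = 0.285) and in DESeq2 (0.136). Ndufa7, a subunit of the peripheral arm, stood at 31.4 and 32.3 CPM in untreated WT, 37.4, 40.4 and 45.8 in treated WT, 28.9 and 32.1 in untreated OVA, and 40.4, 42.4 and 40.7 in treated OVA. Treated libraries were above untreated ones in both lines, by 0.37 (SE 0.073, adjusted p = 0.000527) in WT and 0.43 (SE 0.074, adjusted p = 0.000125) in OVA. Ndufs4, a late-joining subunit of the NADH-oxidising module, stood at 34.4 and 33.6 CPM in untreated WT, 37.5, 40.05 and 42.3 in treated WT, 34.2 and 32.3 in untreated OVA, and 42.3, 41.6 and 46.5 in treated OVA. Its groups did not overlap, and it changed by 0.23 in WT and 0.39 (SE 0.063, adjusted p = 7.77e-05) in OVA. Without WT untreated replicate 2 the WT call of Ndufs4 was lost (edgeR adjusted p = 0.0573). Ndufa6, of the same arm, was at 23.96 and 22.1 CPM in untreated WT, 26.5, 26.9 and 30.99 in treated WT, 22.5 and 19.96 in untreated OVA, and 25.4, 28.7 and 26.7 in treated OVA. It too was higher in every treated library, by 0.29 and 0.35, with its calls lost without WT untreated replicate 2 (adjusted p = 0.101) and OVA untreated replicate 2 (0.0561). Ndufa12, the paralog of the assembly factor Ndufaf2, rose in OVA by 0.24 (SE 0.052, adjusted p = 0.0012), a call lost without OVA untreated replicate 1 (0.0611), and its WT value was 0.11, not called. Ndufb7, of the membrane arm, was the only nuclear complex I gene called lower in OVA, with 36.6 and 40.2 CPM in untreated WT, 39.1, 38.3 and 38.5 in treated WT, 39.9 and 40.7 in untreated OVA, and 34.4, 35.1 and 37.3 in treated OVA. Its treated OVA libraries were all below its untreated ones (-0.18 (SE 0.054, adjusted p = 0.0124)), and the call was lost without OVA untreated replicate 2 (0.0924) and in DESeq2 (0.11). Ndufab1, the mitochondrial acyl carrier protein that also serves lipoic acid synthesis, was called in neither line (-0.01 and 0.03).

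**Figure D2:**
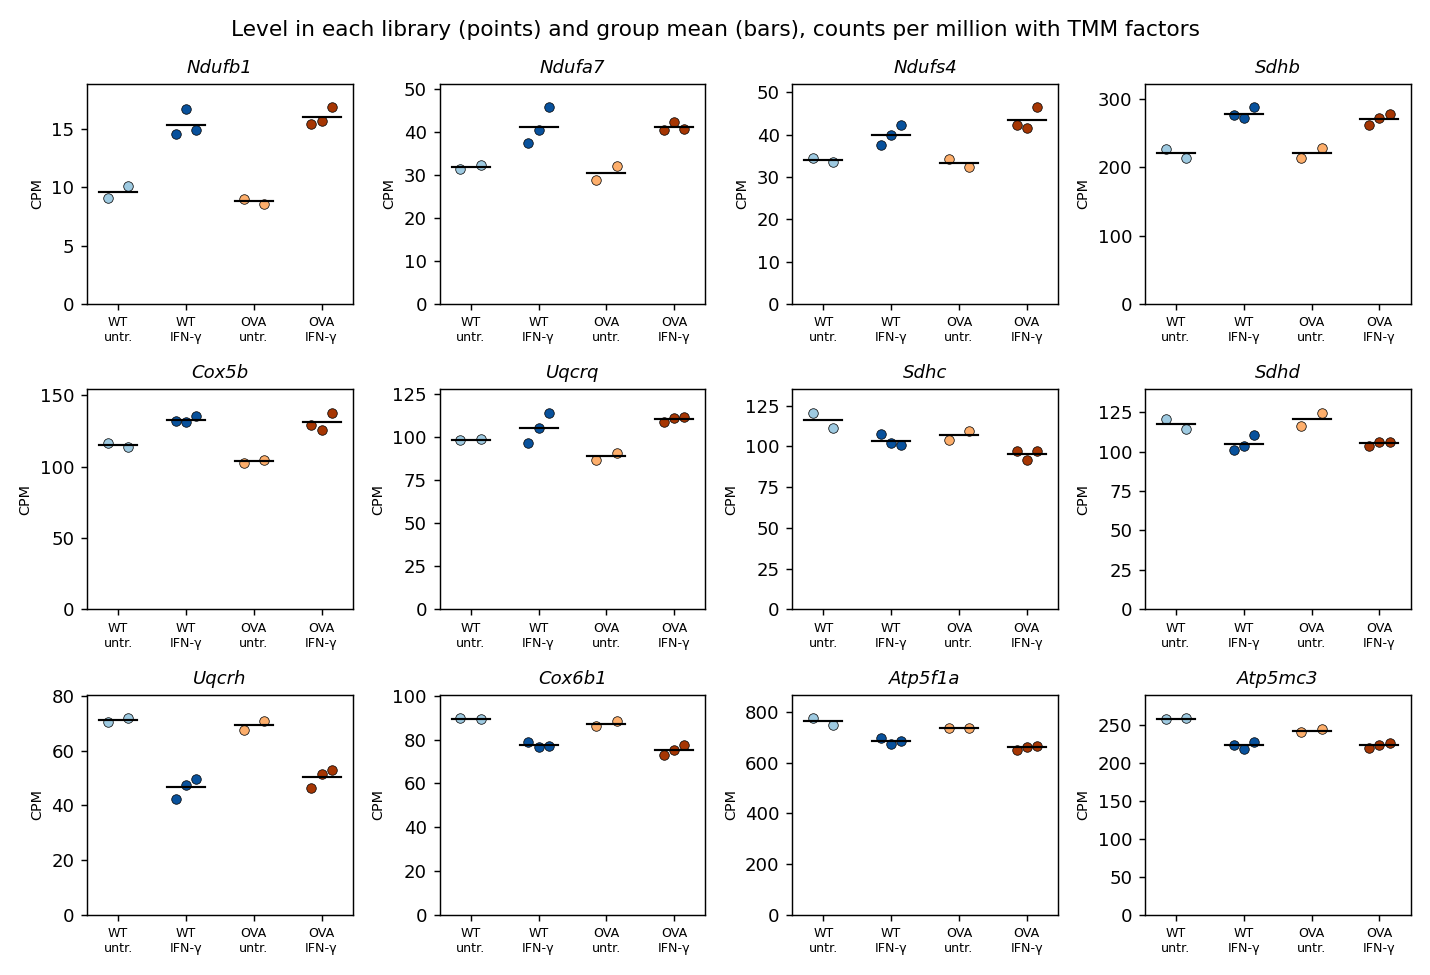
Level of 12 members in each library (points, CPM with TMM factors, y axes from 0) in the 4 groups, with bars at group means; untr. is untreated. Treated and untreated points of a line do not overlap in any panel except those of WT in the panel of Uqcrq, where 1 treated library lies below the untreated ones. Such separation was common: of all tested genes, 33.0% lay above and 29.0% below in WT, and 34.0% and 31.7% in OVA.

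The assembly factors of complex I build the enzyme and leave it. Of the 8, 3 were higher and 0 lower in WT and 4 were higher and 0 lower in OVA, with median changes of 0.14 and 0.24 (upper quartile factors left 0 higher in WT and 4 in OVA). Ndufaf1, which acts on the membrane arm, rose by 0.26 in WT and 0.27 in OVA. Ndufaf3 rose by 0.26 and 0.31, and Ndufaf5, a hydroxylase of Ndufs7, by 0.23 and 0.26. Ndufaf8 was called in OVA (0.37) and not in WT (0.06). In DESeq2 none of these 7 calls passed, with adjusted p of 0.115 to 0.283. Each was also lost on leaving out at least 1 untreated library of its line, with edgeR adjusted p of 0.0838 to 0.273 in those fits.

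Complex II, succinate dehydrogenase, is also an enzyme of the citric acid cycle, and its 4 genes did not move together. Sdhb, the iron-sulfur subunit, stood at 228 and 213 CPM in untreated WT, 276, 272 and 288 in treated WT, 213 and 229 in untreated OVA, and 262, 273 and 278 in treated OVA. All treated libraries were above all untreated ones, by 0.34 (SE 0.041, adjusted p = 2.89e-06) in WT and 0.29 (SE 0.041, adjusted p = 1.29e-05) in OVA. Sdhc, a membrane anchor, stood at 121 and 111 CPM in untreated WT, 107, 102 and 101 in treated WT, 104 and 109.7 in untreated OVA, and 96.9, 91.9 and 97.4 in treated OVA. It was lower in every treated library than in the untreated ones of its line and fell by 0.17 (SE 0.044, adjusted p = 0.00572) on the log2 scale in WT and 0.16 (SE 0.045, adjusted p = 0.00673) in OVA. The other anchor, Sdhd, stood at 121 and 114 CPM in untreated WT, 101, 104 and 110.4 in treated WT, 116 and 125 in untreated OVA, and 104, 106 and 106 in treated OVA. Its groups did not overlap, and it fell by 0.16 (SE 0.044, adjusted p = 0.00673) in WT and 0.19 (SE 0.044, adjusted p = 0.00154) in OVA. Without WT untreated replicate 1 the WT calls of both anchors were lost (edgeR adjusted p = 0.156 for Sdhc and 0.126 for Sdhd), and without OVA untreated replicate 2 the OVA calls were (0.116 and 0.0557). Sdha, the flavoprotein that oxidises succinate, was not called in either line (-0.05 and -0.02), though upper quartile factors called it lower in WT (-0.12, edgeR adjusted p = 0.00769). Summed over the 4 genes, the level was 679.9 ± 17.8 CPM in untreated and 706 ± 16.02 in treated WT (mean ± SD, n = 2 and 3), and 678 ± 19.96 and 699 ± 14.3 in OVA.

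In complex III, Uqcrh had the largest decrease of any member in both lines. Uqcrh is the hinge protein, a small acidic subunit near cytochrome c1. It stood at 70.4 and 71.9 CPM in untreated WT, 42.5, 47.7 and 49.7 in treated WT, 67.8 and 71.02 in untreated OVA, and 46.5, 51.6 and 53.03 in treated OVA. Treated libraries lay well below untreated ones in both lines, and it fell by 0.61 (SE 0.062, adjusted p = 4.03e-07) on the log2 scale in WT and 0.46 (SE 0.062, adjusted p = 9.21e-06) in OVA. None of the other small subunits, Uqcr10, Uqcr11, Uqcrb and Uqcrq, was called in WT, and 3 of them were higher in OVA. Over all 8 genes of complex III the calls were 1 higher and 1 lower in WT and 4 higher and 1 lower in OVA, and with upper quartile factors 0 and 2 in WT and 2 and 2 in OVA. Uqcrq, known as a ubiquinone-binding protein, stood at 98.0 and 98.6 CPM in untreated WT, 96.7, 105 and 114 in treated WT, 86.6 and 90.8 in untreated OVA, and 109, 111 and 112 in treated OVA. Treated and untreated libraries overlapped in WT (0.10, not called) and were apart in OVA, where it rose by 0.32 (SE 0.053, adjusted p = 9.61e-05). Uqcr10 and Uqcrb rose in OVA by 0.23 and 0.23, and both calls were lost without OVA untreated replicate 1 (edgeR adjusted p = 0.0863 and 0.0904). Of the large subunits, the core protein gene Uqcrc2 rose by 0.11 in WT and 0.11 in OVA. In DESeq2 neither of these passed (adjusted p = 0.0602 and 0.0649), and neither did so on leaving out either untreated library of its line. Its partner Uqcrc1 and the Rieske iron-sulfur protein gene Uqcrfs1 were called in neither line. With upper quartile factors Uqcrc1 was called lower in OVA (edgeR adjusted p = 0.00418) and Uqcrfs1 lower in WT (0.0287).

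In complex IV, cytochrome c oxidase, 2 of 12 genes were higher and 1 lower in WT, and 4 higher and 1 lower in OVA (upper quartile factors gave 1 and 4 in WT, and 3 and 1 in OVA). Cox5b, the zinc-binding subunit on the matrix side, stood at 117 and 113 CPM in untreated WT, 132, 131 and 135 in treated WT, 103 and 105 in untreated OVA, and 129, 126 and 138 in treated OVA. It was higher in every treated library, by 0.21 (SE 0.040, adjusted p = 0.000408) in WT and 0.34 (SE 0.040, adjusted p = 2.40e-06) in OVA. Cox6b1, the subunit that faces cytochrome c at the dimer contact, stood at 89.8 and 89.3 CPM in untreated WT, 79.04, 76.7 and 76.96 in treated WT, 86.2 and 88.3 in untreated OVA, and 72.8, 75.4 and 77.5 in treated OVA. Treated libraries were all lower, and it fell by 0.21 (SE 0.039, adjusted p = 0.000331) in WT and 0.21 (SE 0.039, adjusted p = 0.000228) in OVA. Cox6c stood at 86.96 and 82.3 CPM in untreated WT, 79.5, 89.9 and 100.5 in treated WT, 74.2 and 73.5 in untreated OVA, and 88.2, 91.3 and 92.6 in treated OVA. It overlapped between groups in WT (0.09, not called) and rose in OVA by 0.30 (SE 0.068, adjusted p = 0.00171). Cox5a, another subunit on the matrix side, rose in OVA by 0.26 (SE 0.058, adjusted p = 0.0015), with a WT value of 0.10, not called. Cox7c was called higher in WT (0.18) and not in OVA (0.12), with the call lost without WT untreated replicate 2 (adjusted p = 0.14) or WT IFN-γ replicate 3 (0.0533) and in DESeq2 (0.0754). The regulatory subunit Cox4i1 was called in neither line (0.01 and 0.09). Cox6a1, Cox7a2, Cox7a2l, Cox8a and Ndufa4 likewise had no call, with values from -0.14 (Ndufa4 in WT) to 0.14 (Cox6a1 in OVA). Ndufa4 was, however, called lower in WT in 6 of the 20 alternatives, with adjusted p down to 0.00277 (without WT IFN-γ replicate 3). Upper quartile factors also called Cox7a2l and Cox8a lower in WT (edgeR adjusted p = 0.0167 and 0.0238).

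In complex V, 2 of 18 genes were higher and 4 lower in WT, and 5 higher and 2 lower in OVA (upper quartile factors gave 0 and 7 in WT, and 2 and 4 in OVA). In the F1 head, Atp5f1a, the α subunit, stood at 775 and 749.8 CPM in untreated WT, 698, 674 and 686 in treated WT, 737 and 736 in untreated OVA, and 651, 661 and 668 in treated OVA. Treated libraries were lower in both lines, and it fell by 0.15 (SE 0.028, adjusted p = 0.000223) in WT and 0.16 (SE 0.028, adjusted p = 0.000145) in OVA. Its catalytic partner Atp5f1b, the most abundant member, was called in neither line (-0.00 and 0.01), nor was the central shaft gene Atp5f1c. Upper quartile factors, however, called Atp5f1b lower in WT (-0.07, edgeR adjusted p = 0.0254). In the membrane ring, Atp5mc3 stood at 258 and 259 CPM in untreated WT, 224, 219 and 228 in treated WT, 241 and 244 in untreated OVA, and 219, 224 and 227 in treated OVA. It was lower in every treated library and fell by 0.21 (SE 0.030, adjusted p = 2.20e-05) in WT and 0.12 (SE 0.030, adjusted p = 0.00353) in OVA. The other genes of the same ring protein were not called: Atp5mc1 had -0.08 and 0.04, and Atp5mc2 0.00 and -0.24 at 5.21 to 8.76 CPM. With upper quartile factors Atp5mc1 was called lower in WT (edgeR adjusted p = 0.022). In the peripheral stalk, Atp5pb, the b subunit, stood at 220.0 and 211 CPM in untreated WT, 231, 234 and 254 in treated WT, 213 and 213 in untreated OVA, and 242, 251 and 253 in treated OVA. It was higher in every treated library, by 0.15 in WT and 0.23 (SE 0.039, adjusted p = 0.000133) in OVA, and its WT call was lost without WT untreated replicate 2 (0.0726) and with upper quartile factors (0.0951). Atp5if1, which inhibits ATP hydrolysis by the enzyme when the gradient fails, stood at 43.2 and 43.7 CPM in untreated WT, 44.8, 52.8 and 50.9 in treated WT, 43.7 and 47.5 in untreated OVA, and 51.2, 56.3 and 58.8 in treated OVA. It did not overlap between groups of a line, with 0.19 in WT and 0.28 (SE 0.070, adjusted p = 0.00301) in OVA. Its WT call was lost in DESeq2 (adjusted p = 0.0999) and in 6 of the 10 fits that left out a library, and its OVA call without OVA untreated replicate 1 (0.0754), and 485 of its 1441 exon bases overlap the low antisense gene Gm12999. The small membrane subunit gene Atp5mj was called lower in WT (-0.19), a call lost without either untreated WT library (0.0878 and 0.137) or WT IFN-γ replicate 1 (0.0763) and in DESeq2 (0.0795). In OVA Atp5mj had -0.16 and was not called, but it was called lower there in 9 of the 20 alternatives, with adjusted p down to 0.012 (upper quartile factors).

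Summed levels of whole complexes moved little. All 88 genes summed to 8397 ± 155 CPM in untreated and 8396 ± 249 in treated WT, and to 8105 ± 103 in untreated and 8385 ± 194 in treated OVA (mean ± SD, n = 2 and 3). The sum is led by complex V, at 3651 ± 44.0 and 3548 ± 70.0 CPM in WT and 3519 ± 40.5 and 3505 ± 70.4 in OVA. Complex I summed to 2012 ± 37.2 and 2068 ± 81.1 CPM in WT and 1924 ± 36.5 and 2071 ± 58.3 in OVA. Complex IV had 1233 ± 48.3 and 1246 ± 68.8 CPM in WT and 1184 ± 6.72 and 1278 ± 36.4 in OVA. Treated and untreated libraries overlapped for every complex in WT and for complexes II, III and V in OVA, and they did not overlap for complexes I and IV in OVA or for the complex I assembly factors in either line. The treated libraries with replicate number 3 had the highest total in each line (8678 and 8572 CPM), and whether they came from other cultures or preparations is not given in the sources used here.

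**Figure D3:**
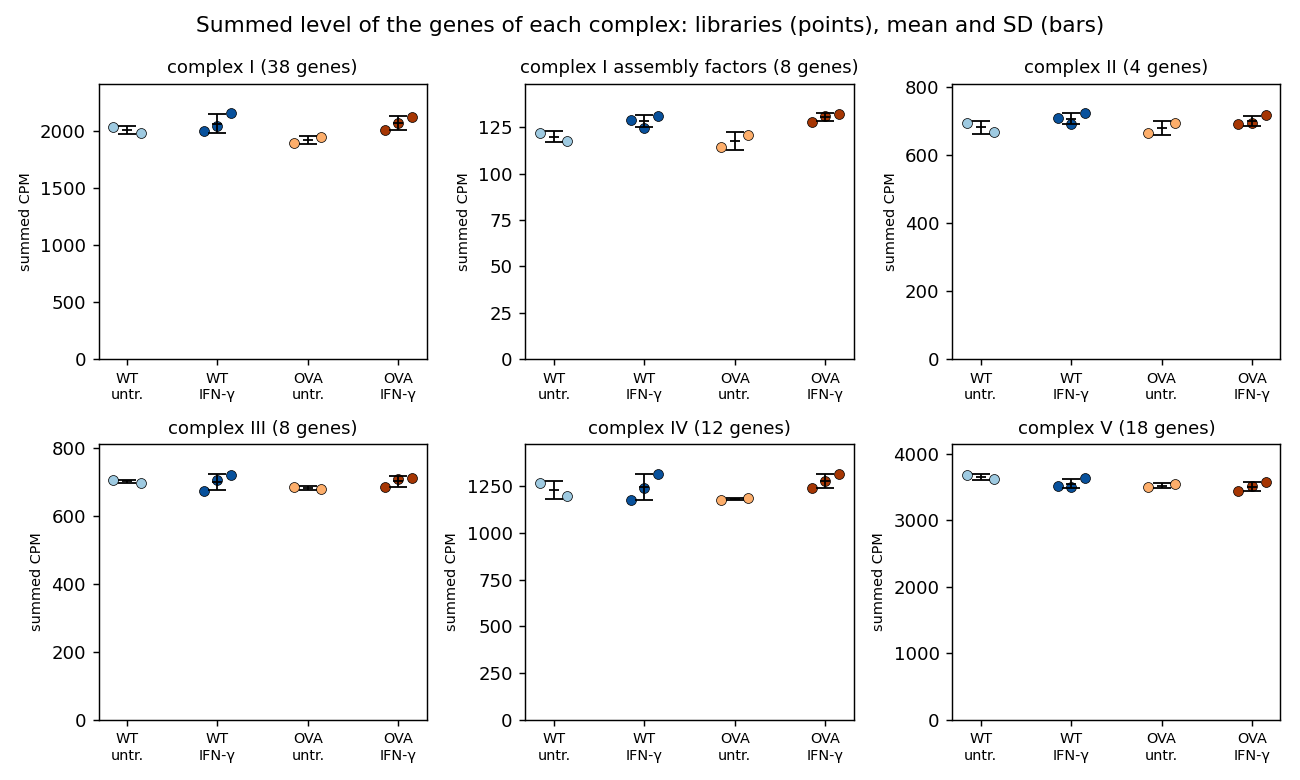
Summed CPM of the genes of each complex (y axes from 0) in each library (points) with the mean and SD of each group. Group means of a complex lie close together in every panel; complex I in OVA goes from 1924 to 2071 CPM and complex V in WT from 3651 to 3548 CPM.

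Whether the lines responded differently was tested gene by gene as the difference of the IFN-γ responses, OVA minus WT. No member passed in edgeR (0 of 88, where 0.341% of all tested genes did), nor in DESeq2 or limma-voom, and 13 members had an unadjusted p under 0.05, against 10.7% of all tested genes. The smallest adjusted p was 0.277, for Ndufb9, with a difference of 0.15 (95% interval 0.04 to 0.26). Uqcrq had 0.22 (0.06 to 0.38), and without WT IFN-γ replicate 3 it alone passed (difference 0.28, adjusted p = 0.0389). In 69 of 88 members the difference was above 0, and the median was 0.07, against -0.01 over all tested genes. The members share the same libraries and scaling factors, so their signs are not independent of each other. By complex the medians were 0.10 in complex I, 0.03 in its assembly factors, -0.01 in complex II, 0.11 in complex III, 0.09 in complex IV and 0.04 in complex V. For 81 members the whole 95% interval lay within 0.5 of 0, and over all members the intervals reached from -0.67 (Atp5mc2) to 0.67 (Ndufs6). Transcript length moved with this value. The 51 members with a principal transcript under 1000 bases had a median difference of 0.09 and the 35 longer ones 0.03, and among other tested genes the medians were 0.04 for 698 short and -0.02 for 11277 longer ones. The difference was above 0 in 80.4% of the short and 77.1% of the longer members. Among the other tested genes these shares were 60.9% and 44.2%. The part of length in the members' median and in these shares was not tested.

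**Figure D4:**
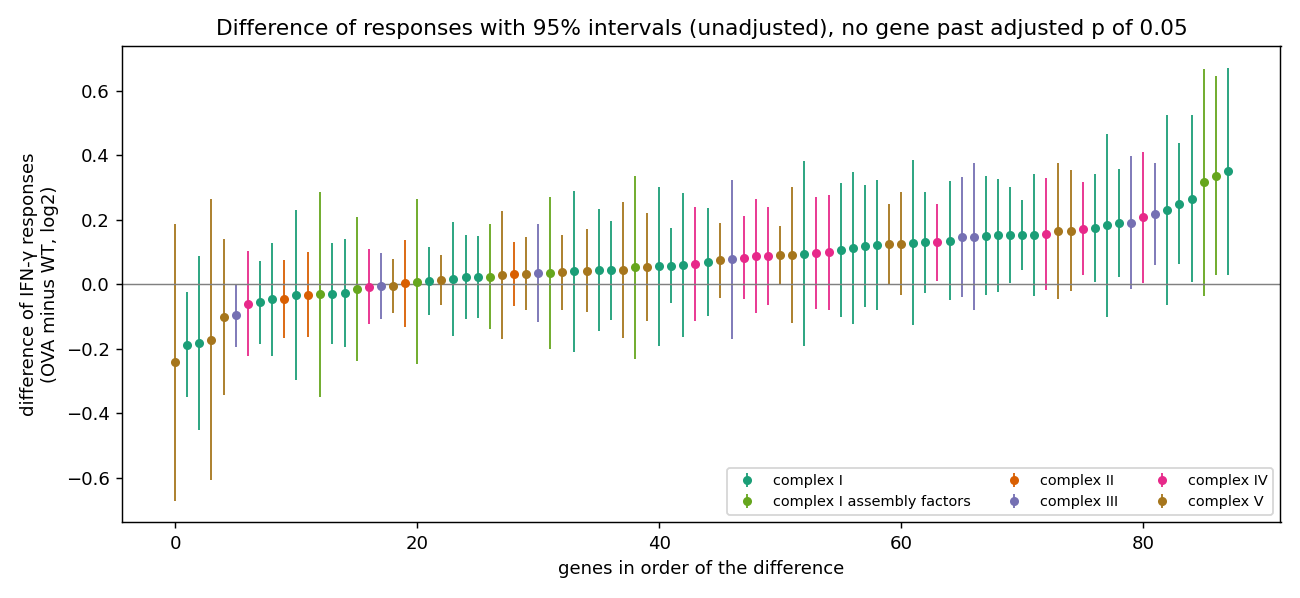
Difference of IFN-γ responses (OVA minus WT, log2, y axis) with unadjusted 95% intervals for the 88 genes in increasing order (x axis), coloured by complex. Of the points, 69 lie above 0, and no gene passed an adjusted p of 0.05. Among other tested genes the difference was above 0 in 60.9% of those with a principal transcript under 1000 bases and 44.2% of longer ones.

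Without IFN-γ, no member differed between the lines in edgeR (0 of 88, against 5.53% of all tested genes), nor in DESeq2 or limma-voom, and 13 had an unadjusted p under 0.05, against 18.5% of all. The closest was Cox5b, with -0.15 in OVA against WT (SE 0.044, adjusted p = 0.0599). The median difference was -0.06, against 0.01 over all tested genes, and in 38 of 88 members both untreated OVA libraries lay below both untreated WT libraries (43.2%, against 23.3% of all tested genes), while in 1 they lay above (1.14%, against 26.4%). When only the 2 groups were fitted, 8 members passed as lower in OVA: Cox5b, Cox6c, Ndufb9, Ndufs1, Ndufs7, Ndufv3, Uqcr10 and Uqcrq. Leaving out WT IFN-γ replicate 1 or 3, or OVA IFN-γ replicate 3, gave 2, 4 and 1. This comparison shares the untreated libraries with the difference of responses, so its values and those above are not independent. Under IFN-γ the lines differed in 2 members, against 14.4% of all tested genes (1 higher in OVA, against 6.36%, and 1 lower, against 7.99%), and the median difference was 0.01. Ndufaf2 was at 10.02, 8.60 and 8.22 CPM in treated WT and 10.7, 11.98 and 10.8 in treated OVA (0.32 (SE 0.092, adjusted p = 0.028)). Every treated OVA library was above every treated WT library, and the call was lost in DESeq2 (adjusted p = 0.188) and without WT IFN-γ replicate 2 or 3 or OVA IFN-γ replicate 2 (0.0987, 0.09 and 0.115). Uqcrc1 was called lower in treated OVA (difference -0.09, adjusted p = 0.0431), a call lost in DESeq2 (0.141) and in 9 of the 10 fits that left out a library.

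The mitochondrially encoded subunits of the same enzymes, a list of 13 genes of which 12 could be tested, were lower after IFN-γ in 6 cases and higher in 2 in WT, and lower in 10 and higher in 1 in OVA, with median changes of -0.12 and -0.32 where the 88 nuclear members had 0.01 and 0.10. Of all tested genes, 19.7% were called lower and 24.5% higher in WT, and 22.9% and 25.9% in OVA. In complex I, 5 of 6 tested mitochondrial genes were lower in WT and 6 of 6 in OVA (medians -0.19 and -0.53), beside 2 and 1 of the 38 nuclear genes. The complex III gene mt-Cytb, which encodes cytochrome b, fell by 0.43 in WT and 0.67 in OVA on the log2 scale. In complex IV, mt-Co3 was higher in WT (0.20) and not called in OVA (0.03), and mt-Co2 was not called in WT (0.11) and higher in OVA (0.17). The third gene, mt-Co1, was called higher in WT (0.09) and lower in OVA (-0.11), while the difference of its responses did not pass (-0.20, edgeR adjusted p = 0.129). For mt-Nd5 and mt-Nd6, of complex I, the response was lower in OVA than in WT (difference -0.43 and -0.41, edgeR adjusted p = 0.00312 and 0.014). Mitochondrial transcripts took 2.86% and 2.88% of the counts in untreated WT libraries and 2.72% to 2.77% in treated WT. Their share was 3.15% and 3.20% in untreated OVA and 2.55% to 2.77% in treated OVA. These transcripts are cut from shared precursors and some of them overlap, so these genes are not independent of each other. A library made by poly-A selection measures most of them only through short tails. The libraries are not stated to be stranded, so reads from opposite strands, as at mt-Nd6, cannot be told apart. The difference between the nuclear and the mitochondrial genes was not itself tested.

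**Figure D5:**
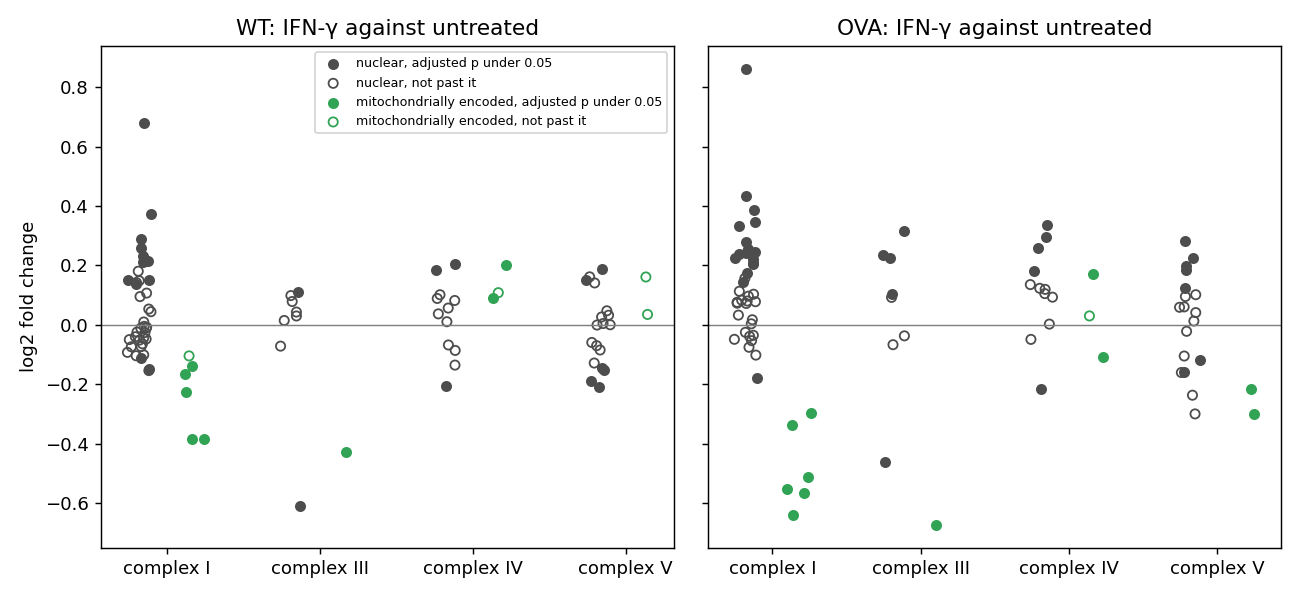
Log2 fold change of IFN-γ against untreated (y axis) for nuclear (grey) and mitochondrially encoded (green) subunit genes of the 4 complexes that have both, in WT (left) and OVA (right); filled points have an adjusted p under 0.05. All tested mitochondrial complex I genes lie below 0 in both lines, where the nuclear genes of that complex lie on both sides of it.

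Other genes of the pathway, in lists chosen by function, moved in mixed ways. To set beside the counts that follow, 24.5% of all tested genes were called higher and 19.7% lower in WT, and 25.9% and 22.9% in OVA. Of 47 tested assembly factors of other kinds, 13 were higher and 4 lower in WT and 20 higher and 4 lower in OVA (medians 0.12 and 0.17). Among them the copper chaperone gene Sco2 rose by 0.59 in WT, the copper carrier gene Cox17 by 0.59 in OVA, and Sdhaf1, which matures the iron-sulfur subunit of complex II, fell by 0.51 in OVA. The 78 mitochondrial ribosome genes, whose products translate the mitochondrial subunits, were higher in 37 and lower in 8 cases in WT and higher in 39 and lower in 5 in OVA (medians 0.16 and 0.18). Of 15 genes for cytochrome c, cytochrome c1, the electron transfer flavoproteins and ubiquinone synthesis, 4 were higher and 2 lower in WT and 5 higher and 1 lower in OVA (medians 0.12 and 0.06), with Coq8a, an atypical kinase of ubiquinone synthesis, falling by 0.83 and 0.77 and Pdss1, which makes the ubiquinone tail, rising by 0.42 and 0.38. Of 16 tested regulators of these genes, 4 were higher and 5 lower in WT and 4 higher and 7 lower in OVA (medians 0.02 and -0.02). Tefm, a mitochondrial transcription elongation factor, rose by 0.59 and 0.66, the coactivator gene Ppargc1a rose by 0.33 and 0.50, and the nuclear factors Nrf1 and Esrra fell by 0.25 and 0.44 in WT and by 0.44 and 0.24 in OVA. Of 19 tested citric acid cycle genes, 2 were higher and 6 lower in WT and 7 higher and 6 lower in OVA (medians -0.04 and -0.02). Over all tested genes the medians were 0.01 and 0.00, and in the test of the difference of responses no assembly factor, ribosome, carrier or regulator gene passed, while 1 gene of the citric acid cycle list did, the pyruvate dehydrogenase kinase gene Pdk1 (-0.30).

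Genes linked to hypoxia differed between the lines and are given beside the members. The list was chosen with earlier results of these data known. Of its 11 genes, 9 were lower in OVA than in WT without treatment, against 2.55% of all tested genes. Under IFN-γ 10 were lower, against 7.99%, and the medians were -0.49 and -0.65. For the difference of responses 2 passed, Bnip3 and Pdk1 (-0.60 and -0.30), against 0.341% of all tested genes. Bnip3, a mitophagy receptor, stood at 135 and 129 CPM in untreated WT, 124, 125 and 132 in treated WT, 85.3 and 84.4 in untreated OVA, and 52.6, 54.3 and 54.4 in treated OVA. The lines did not overlap for it. The part of these genes in the members' levels was not tested.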

How the data were processed

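Libraries were made from poly-A selected RNA, and the authors deposited whole-number read counts by Ensembl gene. Per the submitters' processing notes, the tools were HISAT2 2.0.5 and featureCounts 1.6.0, with GRCm39. Annotation release, strand setting and handling of multiply mapped reads: not given in the sources used here. The labels' extraction protocol mentions tissue, but cell lines are named elsewhere in the labels, which is followed here. All 10 samples were fitted as 4 group means in edgeR 4.0.16 (R 4.3.3) with TMM factors and filterByExpr, and each comparison was a two-sided quasi-likelihood test with Benjamini-Hochberg adjustment over 15526 genes at 0.05. The pipeline was tested on simulated data. Lengths and overlaps came from GENCODE M21 and promoters from RefSeq, both on GRCm38, with members matched by symbol. The members, lists, subunit groups and rule for named genes were chosen with earlier results of these data known. The named genes were key subunits, the 2 strongest calls each way per complex and comparison, and the extremes per length. Members named outside that rule, such as Ndufa6 and Ndufs4, were added after their values were seen, and a member chosen by the rule is not reported here. Alternatives were other scaling factors, DESeq2 1.42.0, limma-voom (limma 3.58.1), other filters, blocking on replicate number, fitting the compared groups alone, a threshold of 0.01 and leaving out each library. No interval is given for CPM, whose precision rests on total counts of 17728722 to 19642533 and on 2 or 3 libraries per group.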

Additional observations from a re-analysis of the deposited data

How the results depend on the processing

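No called change of a member turned its direction under any alternative run. In WT the 19 higher members became 7 with upper quartile factors, 11 in DESeq2 and 9 at an adjusted p under 0.01, and the 10 lower became 23, 8 and 6. Upper quartile factors moved the median of all tested genes by -0.07 in WT and -0.06 in OVA. In OVA the 34 higher members became 23, 20 and 18 in the same order, and the 7 lower became 12, 6 and 6. Leaving out each library gave 7 to 21 higher and 4 to 17 lower in WT, 15 to 35 higher and 5 to 10 lower in OVA, and 0 to 1 higher for the difference of responses.

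Between untreated lines, 0 members were lower, and 2 were with total counts only, 3 with upper quartile factors, 1 with no filter, 4 with the stricter filter, 8 when only the compared groups were fitted, and 0 to 4 without a library. Between treated lines, the 1 higher member became 4 with total counts only, 5 with no filter, 2 with the stricter filter, 0 in DESeq2 and at an adjusted p under 0.01, and 0 to 9 without a library. The 1 lower member became 0 with total counts only, in DESeq2, with only the compared groups and at an adjusted p under 0.01, 2 with the stricter filter and 0 to 3 without a library. The cause was not tested. Deviations of same-numbered libraries from their group means had correlations of -0.07 to 0.03. In a group of 2 libraries the deviations mirror each other, so these values cannot show whether the numbers pair libraries. A replicate block gave 16 higher and 14 lower in WT, 31 and 10 in OVA, 0 for the difference of responses, 3 lower between untreated lines, and 3 higher and 5 lower between treated lines. Every member had at least 1000 counts over the 10 libraries. The intervals for the difference of responses reached furthest from 0 for Atp5mc2 and Ndufs6, with 1401 and 2754 counts. The parts of depth and of having 2 untreated libraries per line in the precision were not tested.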

Other observations

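AA467197 is the mouse counterpart of human C15orf48, a paralog of the complex IV subunit gene Ndufa4 that does not carry a subunit symbol. It was looked at after its values were seen and is no member. AA467197 had 7 and 4 counts in untreated WT, 60, 70 and 56 in treated WT, 4 and 5 in untreated OVA, and 66, 66 and 68 in treated OVA. It rose by 3.39 (SE 0.29) on the log2 scale in WT and by 3.89 (SE 0.30) in OVA, with edgeR adjusted p of 4.62e-08 and 9.62e-09, and every treated library was above every untreated one. The difference of the responses was 0.51 (adjusted p = 0.852). Ndufa4 itself stood at 173 and 162 CPM in untreated WT, 137, 154 and 166 in treated WT, 168 and 175 in untreated OVA, and 159, 168 and 169.97 in treated OVA, and was not called in OVA (-0.05) or WT (-0.14), though 6 of the 20 alternatives called it lower in WT. AA467197 stayed the less abundant of the pair, at 2.93 to 3.79 CPM in treated libraries.

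Higd1a, whose product associates with complex IV, was lower after IFN-γ in both lines (-0.14 in WT and -0.30 in OVA) and lower in OVA than in WT without treatment (-0.49) and with it (-0.65). Its levels were 45.6 and 45.8 CPM in untreated WT, 41.3, 40.4 and 43.0 in treated WT, 33.1 and 32.0 in untreated OVA, and 27.3, 25.9 and 26.4 in treated OVA, so that no group overlapped another. Its values are given as a description, since it was picked after they were seen.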
